A study of Mus musculus with 2 samples.

Results

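S100a8, S100a9, Retnlg, Cxcr2, G0s2, Clec4d and Hdc are 7 of the 17790 genes in the deposited count table, picked by name as transcripts known from neutrophils and followed here in 15389 single cells of mouse lung adenocarcinoma. The tissue came from lungs of C57BL/6 mice. Tumours were dissected and dissociated, and magnetic beads against CD45 parted a CD45-positive fraction, which holds leukocytes, from a CD45-negative fraction. Each fraction is 1 sample by its labels, sequenced as 3′ transcript ends from droplets and called a library here, with 11432 cells deposited for the CD45-positive and 3957 for the CD45-negative library. The first number exceeds the 6000 cells loaded per channel of the droplet chip, and the sources used here do not say whether channels were pooled. Both libraries carry the name LucOS, which the sources used here do not explain, and they do not give the tumour model, its stage or the number of mice. There was no healthy lung among the groups and no second library of either fraction. Differences between the fractions therefore had no replicate check, and no p-value was computed.

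Neutrophils are short-lived phagocytes that leave the bone marrow, circulate, and enter inflamed tissue and tumours along chemokine gradients. They are filled with calprotectin, the calcium-binding pair of S100a8 and S100a9, and their production and release depend on the cytokine G-CSF, whose receptor is encoded by Csf3r. In lung tumours they form one of the larger myeloid populations, with roles that have been described as both helping and hindering tumour growth.

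The remaining genes cover other sides of the cell. Retnlg encodes a resistin-like protein secreted by mouse myeloid cells. Cxcr2 encodes the receptor for the chemokines that draw neutrophils out of the marrow and into tissue. G0s2 encodes an inhibitor of adipose triglyceride lipase, the enzyme that starts the breakdown of stored fat. Clec4d encodes a C-type lectin receptor that senses mycobacterial and fungal glycolipids. Hdc encodes histidine decarboxylase, the enzyme that makes histamine, and is also known from mast cells and basophils.

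By the annotation of GRCm38, S100a8 (ENSMUSG00000056054) lies at chr3:90668978-90670035 on the plus strand, and S100a9 (ENSMUSG00000056071) at chr3:90692632-90695721 on the minus strand. The pair is thus 22596 bases apart, and each is transcribed toward the other. Retnlg (ENSMUSG00000022651, chr16:48872621-48874496, plus) lies 28159 bases from its relative Retnla. Cxcr2 (ENSMUSG00000026180) is at chr1:74153989-74161246 on the plus strand and G0s2 (ENSMUSG00000009633) at chr1:193272161-193273217 on the minus strand. Clec4d (ENSMUSG00000030144) is at chr6:123262111-123275265 on the plus strand and Hdc (ENSMUSG00000027360) at chr2:126593667-126619299 on the minus strand. All are protein-coding genes.

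Promoter windows of RefSeq (GRCm38.p6, 300 bases around the gene's RefSeq start) were found for all 7 genes. They are shown for S100a8 and S100a9, whose transcripts were the most closely tied across cells, for Retnlg, and for Hdc, which had its highest level by class outside the leukocytes. Capitals mark matches on either strand to TTGCNNAA, a form of the C/EBP site, or to GAGGAA, the core of a PU.1 box. C/EBP factors and PU.1 are the classical transcription factors of granulocyte development.
S100a8, chr3:90668821-90669120, plus strand: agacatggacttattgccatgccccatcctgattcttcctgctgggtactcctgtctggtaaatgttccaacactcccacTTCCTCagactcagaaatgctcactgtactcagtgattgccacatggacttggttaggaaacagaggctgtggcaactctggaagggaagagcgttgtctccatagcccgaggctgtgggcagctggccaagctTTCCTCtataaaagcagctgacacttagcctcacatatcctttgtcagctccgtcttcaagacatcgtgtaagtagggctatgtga
S100a9, chr3:90695672-90695971, minus strand: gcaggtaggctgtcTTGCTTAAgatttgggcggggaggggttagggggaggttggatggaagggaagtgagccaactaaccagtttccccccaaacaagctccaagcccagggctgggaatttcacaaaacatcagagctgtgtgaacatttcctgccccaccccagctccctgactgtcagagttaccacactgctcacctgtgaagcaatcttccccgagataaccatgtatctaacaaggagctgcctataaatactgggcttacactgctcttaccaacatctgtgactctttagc
Retnlg, chr16:48872358-48872657, plus strand: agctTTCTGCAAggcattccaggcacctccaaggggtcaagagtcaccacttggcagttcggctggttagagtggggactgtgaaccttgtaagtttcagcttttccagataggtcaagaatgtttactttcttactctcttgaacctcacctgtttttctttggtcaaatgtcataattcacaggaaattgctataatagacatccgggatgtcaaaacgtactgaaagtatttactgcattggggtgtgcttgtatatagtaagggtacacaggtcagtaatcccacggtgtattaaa
Hdc, chr2:126618629-126618928, minus strand: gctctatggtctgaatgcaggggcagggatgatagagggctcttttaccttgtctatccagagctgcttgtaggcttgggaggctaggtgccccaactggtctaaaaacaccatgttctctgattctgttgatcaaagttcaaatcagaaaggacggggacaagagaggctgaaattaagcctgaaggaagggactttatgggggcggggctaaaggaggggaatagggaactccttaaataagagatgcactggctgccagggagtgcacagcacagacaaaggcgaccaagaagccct
TTGCNNAA was found in 2 of the 7 windows, those of S100a9 and Retnlg, and in 10.8% of 32851 promoter windows of the same length. GAGGAA was found in 3 of the 7, those of S100a8, Cxcr2 and Clec4d, and in 28.3% of all windows. In S100a8 the matches lay 170 and 36 bases before the start, in S100a9 the match lay 236 bases before it, and in Retnlg 246 bases. The windows of G0s2 and Hdc held neither motif. The motifs did not overlap each other, and a match in letters is no evidence of a bound factor.

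The libraries differed in depth. The CD45-positive library held 47477407 UMI (unique molecular identifiers, each a counted transcript), with a median of 3376 and a lowest value of 2204 per cell. The CD45-negative library held 40873786 UMI, with a median of 7710 and a lowest value of 4646 per cell. Ptprc, which encodes CD45, stood at 207 CPM (counts per 1000000 UMI, from UMI summed over cells) among CD45-positive and 6.09 CPM among CD45-negative cells. By the deposited classes, 7438 of the 11432 CD45-positive cells and 108 of the 3957 CD45-negative cells were Immune, and the 57 barcodes found in both libraries did not change the ratio of the summed genes between them (11.7, and 11.7 without those barcodes). All deposited cells were kept and no doublet caller was run.

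All but Hdc were far more abundant among CD45-positive cells. S100a8 stood at 652 CPM (644 to 659) there, against 14.1 CPM (12.9 to 15.3) among CD45-negative cells, a ratio of 46.3 (42.7 to 50.4). Every interval given is an exact 95% interval that, as the floors for a count of 0, covers counting error alone. S100a9 stood at 451 CPM among CD45-positive and 7.44 CPM among CD45-negative cells, a ratio of 60.6 (54.1 to 68.1). The pair thus had the largest ratios among the 7 genes.

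Cxcr2 had a ratio of 19.4 (13.1 to 30.01), with 12.4 CPM among CD45-positive and 0.636 CPM among CD45-negative cells. Clec4d had 25.2 CPM among CD45-positive and 1.17 CPM among CD45-negative cells, a ratio of 21.5 (16.1 to 29.3). The ratio was smaller for G0s2 (7.70, 7.13 to 8.33), with 136 CPM among CD45-positive and 17.6 CPM among CD45-negative cells. Retnlg had the smallest ratio of the 6 (5.82, 5.02 to 6.78), with 28.6 CPM among CD45-positive and 4.92 CPM among CD45-negative cells.

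Hdc was the exception, with 64.2 CPM (61.9 to 66.5) among CD45-positive and 71.0 CPM (68.5 to 73.7) among CD45-negative cells, a ratio of 0.903 (0.858 to 0.951). Thus 6 of the 7 genes passed a ratio of 2, as did 8.23% of the 9960 genes with at least 500 UMI, while 0 of the 7 fell below a ratio of 0.5, as did 14.4% of those genes. The sort by CD45 itself sets which cells each library holds, and in summed levels fewer cells of a type and less RNA per cell cannot be told apart.

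**Figure D1:**
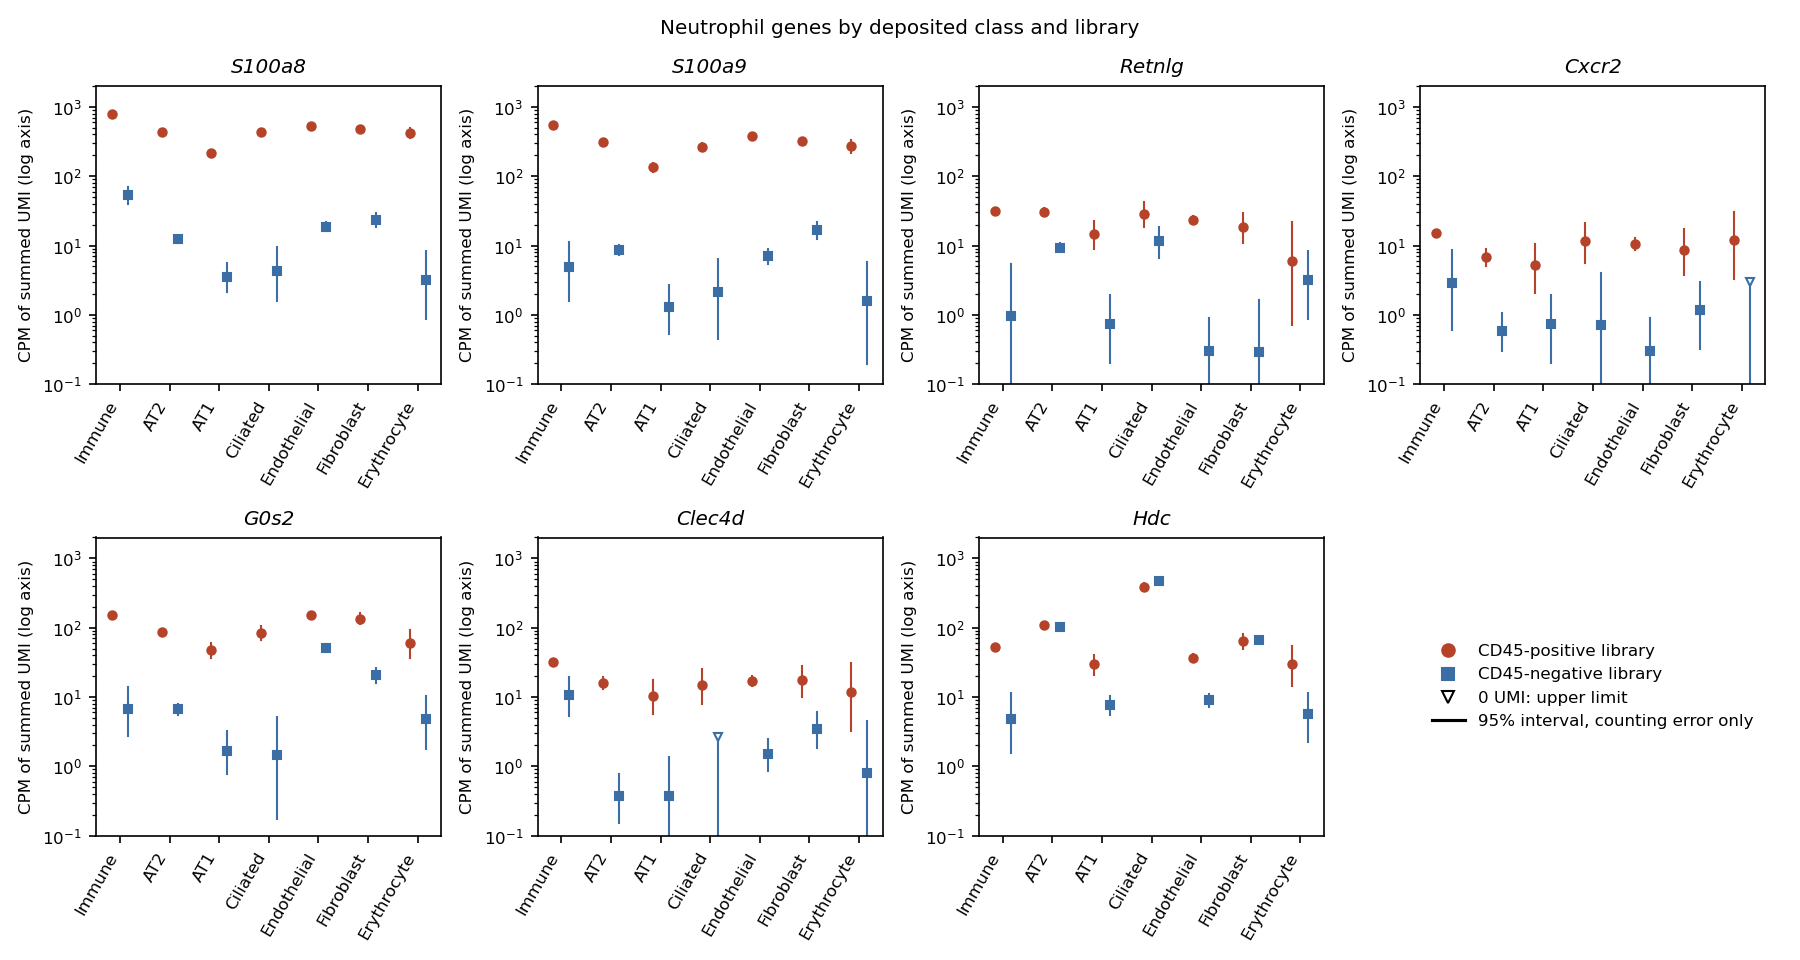
Level of each gene in the 7 deposited cell classes, as CPM of summed UMI on a log axis, with the CD45-positive library (circles) left of the CD45-negative library (squares) in each class. Lines are exact 95% intervals for counting error, cut off at 0.1 CPM, and open triangles are upper limits where no UMI was found. S100a8 and S100a9 are high in every class of the CD45-positive library, and Hdc is highest in the Ciliated class of both.

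To find the cells that carry these transcripts without using them, cells of the Immune class in the CD45-positive library were split by Csf3r. Csf3r is not among the 7 genes and stood at 29.2 CPM among CD45-positive and 0.856 CPM among CD45-negative cells. Cells with 2 or more Csf3r UMI numbered 156 and are called Csf3r cells; 566 cells had 1 UMI and 6716 had 0. The median depth was 3323 UMI in Csf3r cells and 3185 UMI in cells with 0 Csf3r UMI. The Immune class of the CD45-negative library had 0 such cells among 108, which allows a share of up to 2.78% by a floor of 3 cells. In the other classes, 77 cells of the CD45-positive and 6 of the CD45-negative library had 2 or more Csf3r UMI.

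All 7 genes were higher in Csf3r cells. S100a8 reached 4882 CPM (4705 to 5064) in Csf3r cells, against 518 CPM (509 to 527) in immune cells with 0 Csf3r UMI, a ratio of 9.42 (9.05 to 9.81). S100a9 reached 3543 CPM in Csf3r cells and 348 CPM in cells with 0 Csf3r UMI, a ratio of 10.2 (9.70 to 10.7). For G0s2 the levels were 1097 CPM in Csf3r cells and 96.8 CPM in cells with 0 Csf3r UMI (11.3, 10.4 to 12.4).

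Retnlg was at 219 CPM in Csf3r cells and 19.9 CPM in cells with 0 Csf3r UMI (10.99, 8.99 to 13.4). Hdc was at 335 CPM in Csf3r cells and 35.8 CPM in cells with 0 Csf3r UMI (9.35, 7.97 to 10.9), although it did not differ in this direction between the libraries. Cxcr2, the chemokine receptor, was at 84.9 CPM in Csf3r cells and 9.72 CPM in cells with 0 Csf3r UMI (8.73, 6.31 to 11.9). The lectin gene Clec4d had the smallest ratio of the 7, 5.91 (4.64 to 7.45), from 141 CPM in Csf3r cells and 23.8 CPM in cells with 0 Csf3r UMI. A ratio of 2 or more was thus found for 7 of 7 genes, against 4.10% of the 9474 genes with at least 100 UMI in the compared cells; 0 of the 7 and 8.45% of those genes were at least 2-fold lower. Csf3r varies with these genes across cells, so the ratios describe the split and are no independent test.

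Cells with 1 Csf3r UMI lay between the others for every gene. S100a8 was at 2801 CPM, S100a9 at 1968 CPM, G0s2 at 508 CPM, Hdc at 173 CPM, Retnlg at 109 CPM, Clec4d at 94.0 CPM and Cxcr2 at 55.8 CPM in these 566 cells. These are pooled levels, and the cells were not uniform. The median was 5 summed S100a8 and S100a9 UMI per cell, with a lower quartile of 1, and 26.7% of the cells had 20 or more. A UMI of S100a8 was found in 79.9% of them.

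The genes differed in how many Csf3r cells showed them. A UMI of S100a8 was found in 92.3% (86.9 to 96.0%) of Csf3r cells and of S100a9 in 85.3%. G0s2 was found in 66.0%, Hdc in 59.0%, Clec4d in 36.5%, and Retnlg and Cxcr2 in 22.4% each. B cells should lack these transcripts. In the 627 immune cells that met the B cell gate alone (2 or more summed UMI of its markers), at a median depth of 2821 UMI, the shares were 47.0% for S100a8, 36.0% for S100a9, 16.3% for G0s2, 11.005% for Hdc, 7.66% for Clec4d, 3.51% for Retnlg and 4.31% for Cxcr2. In a cluster of 930 immune cells led by the B cell gene Ms4a1 the shares were lower, at 35.5%, 24.6%, 8.49%, 4.52%, 1.51%, 1.08% and 1.08% in the same order of genes. The median depth of that cluster was 2891.5 UMI, and 53.4% of its cells also met the T cell gate. After each cell was thinned to 1000 UMI, which left out no cell, S100a8 was found in 83.3% of Csf3r cells, 25.8% of the cells of the B cell gate and 14.2% of the cluster, and Cxcr2 in 12.2% of Csf3r cells, 2.55% of the cells of the gate and 0.753% of the cluster. Each of the 7 shares in Csf3r cells lay above both of these before and after thinning.

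**Figure D2:**
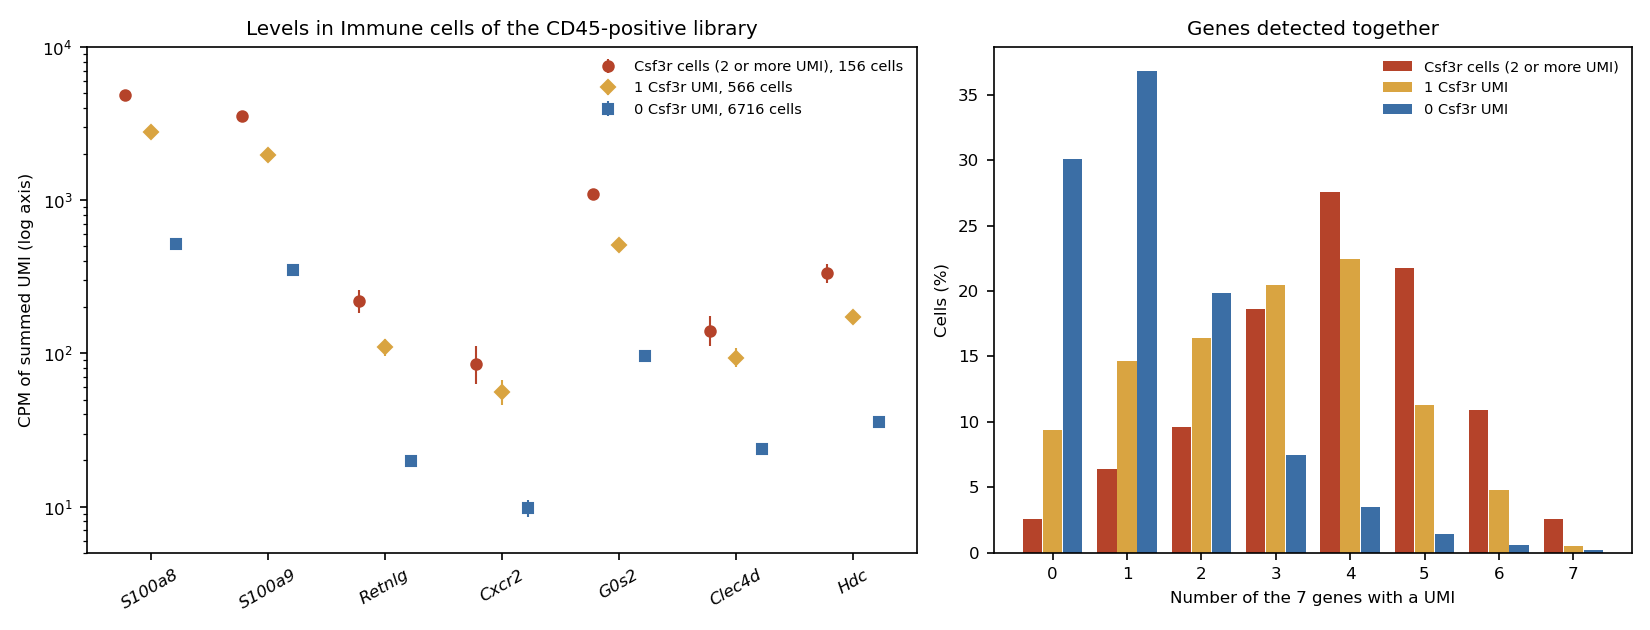
Left, level of each gene in Immune cells of the CD45-positive library with 2 or more, 1 or 0 Csf3r UMI, as CPM on a log axis with exact 95% intervals for counting error. Right, percent of the cells of each group by the number of the 7 genes with a UMI: Csf3r cells peak at 4 genes, and cells with 0 Csf3r UMI at 1.

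Many Csf3r cells held UMI of several of the genes. At least 4 of the 7 had a UMI in 98 of 156 Csf3r cells (62.8%, 54.7 to 70.4%), in 39.0% of cells with 1 Csf3r UMI and in 5.73% of cells with 0 Csf3r UMI. Thinned to 1000 UMI, the shares were 28.2% of Csf3r cells, 11.8% of cells with 1 Csf3r UMI and 1.62% of cells with 0. The shares of cells with each gene, multiplied as if the genes were found independently, give 62.2% of Csf3r cells, 28.4% of cells with 1 Csf3r UMI and 1.004% of cells with 0 Csf3r UMI with at least 4 genes, so in Csf3r cells the count is close to what the single shares give. All 7 were seen in 4 Csf3r cells and none in another 4.

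Within Csf3r cells the calprotectin pair was the most closely tied. Both S100a8 and S100a9 had a UMI in 83.3% of these cells, beside 78.7% from the product of their single shares, and their log2 levels had a Pearson correlation of 0.855 across the 156 cells, which share a library and differ in depth. The other pairs had correlations of -0.00421 (Cxcr2 with Clec4d) to 0.413 (S100a8 with G0s2). Retnlg had its UMI in few cells: 35 cells held its 129 UMI, and 1 cell held 34 of them. Cxcr2 was also found in 35 cells, but with at most 3 UMI in any of them.

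Csf3r cells were not uniform. The summed UMI of S100a8 and S100a9 ran from 0 to 245 per cell, with quartiles of 5.75 and 43.5 and a median of 21; in cells with 0 Csf3r UMI the median was 1 and the highest value 331. Of the 156 cells, 130 also met a marker gate of another leukocyte type (2 or more summed UMI of its markers), 74 of them the T cell gate and 45 the B cell gate. The T cell gate was met by 57.2% of all immune cells in this library, so these gates overlapped widely.

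The same genes marked the cells with 2 or more Csf3r UMI outside the Immune class. In these 77 cells, 34 of them Endothelial and 32 AT2 (alveolar type 2) by annotation, S100a8 was at 3146 CPM and G0s2 at 773 CPM, against 332 CPM and 87.3 CPM in 3636 non-immune cells with 0 Csf3r UMI. Cxcr2 was at 56.2 CPM in the 77 cells and 5.83 CPM in the 3636, and Hdc was at 193 CPM in the 77 cells and 69.0 CPM in the 3636.

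The 26 Csf3r cells that met no other gate had a higher level of each of the 7 genes than the other 130. S100a8 was at 9621 CPM and S100a9 at 7424 CPM in them, each with a UMI in 26 of 26 cells, against 4194 and 2980 CPM in the 130 cells that met another gate. G0s2 was at 2023 CPM and Hdc at 898 CPM in the 26 cells, against 963 and 253 CPM in the 130. Retnlg, Cxcr2 and Clec4d stood at 375, 188 and 201 CPM in the 26 cells and at 196, 70.0 and 132 CPM in the 130. For Clec4d the intervals overlapped (112.5 to 332 CPM in the 26 cells, 103 to 168 CPM in the 130). Their median depth was 2562.5 UMI, against 3469.5 UMI in the 130. Whether the mixed cells are doublets or carry free transcripts was not tested.

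Grouping by Csf3r left many calprotectin-rich cells aside. The limit of 20 summed S100a8 and S100a9 UMI, set after the values were seen, was reached by 80 Csf3r cells (51.3%), by 151 cells with 1 Csf3r UMI and by 204 cells (3.04%) with 0. The immune cells were therefore also clustered on 2000 variable genes with the 7 genes and Csf3r left out, a step added after the data were seen. Of the 23 clusters, the one with the highest Csf3r level (212 CPM) held 518 cells and was led by Irg1 (Acod1, the enzyme that makes itaconate), Il1b, Ptgs2, Cxcl2, Mmp9 and Ccrl2. It took in 68 of the 156 Csf3r cells (43.6%), and 46.1% of its cells had a Csf3r UMI.

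That cluster had the highest level of S100a8 (6137 CPM) and S100a9 (4460 CPM) among the 23. It was also highest for G0s2 (1163 CPM) and Retnlg (240 CPM), with Hdc at 348 CPM, Clec4d at 200 CPM and Cxcr2 at 101 CPM. S100a8 was found in 96.3% of its cells at a median depth of 2769.5 UMI, and in 85.5% after thinning. T cell markers (Cd3d, Cd3e and Cd3g) were present in it as well, at 1210 CPM in sum, with 69.5% of its cells meeting that gate. A further cluster of 99 cells, led by Slpi, Gm5483 and Eaf2 and holding plasma cell markers at 733 CPM, had S100a8 at 3728 CPM and G0s2 at 728 CPM. In a cluster of 519 cells led by haemoglobin genes, S100a8 was at 1316 CPM.

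**Figure D3:**
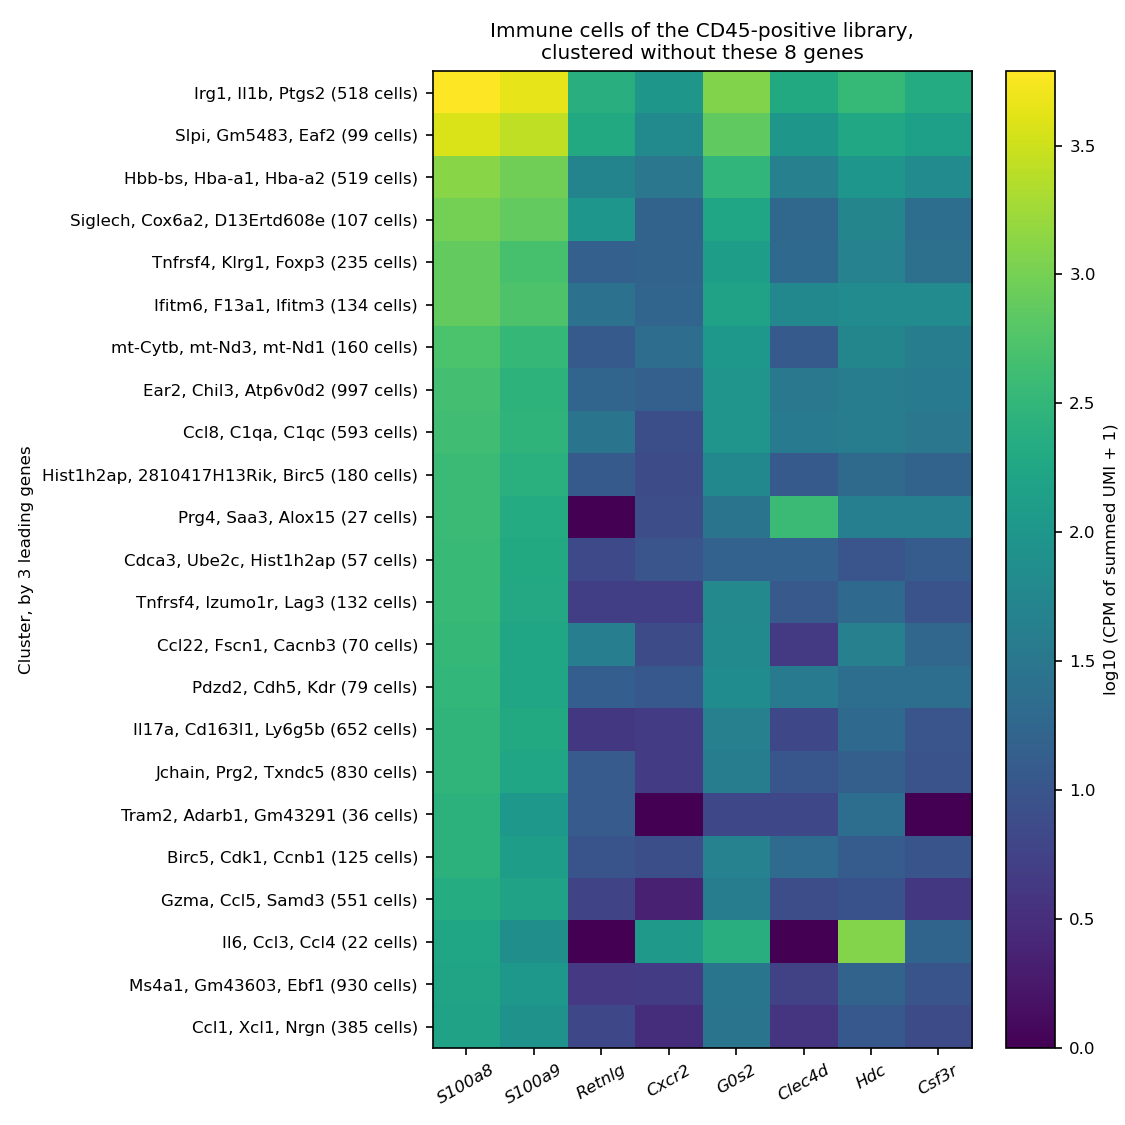
Level of the 7 genes and Csf3r in 23 clusters of Immune cells of the CD45-positive library, formed without these 8 genes and listed by S100a8 level, as log10 of CPM plus 1. The top row, 518 cells led by Irg1, Il1b and Ptgs2, is high for all 8 genes, while Hdc is highest in the 22 cells led by Il6, Ccl3 and Ccl4, and Clec4d in the 27 cells led by Prg4, Saa3 and Alox15.

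Genes of mature neutrophils followed the 7. Of the 20 genes with at least 100 UMI in a list of mature neutrophil transcripts, 16 were at least 2-fold higher in Csf3r cells and 0 were lower, beside 4.10% higher and 8.45% lower among all 9474 genes compared. The median ratio was 4.24 in the list and 0.9497 over all of those genes. Genes under 100 UMI were not compared. This list and those below were chosen with earlier results of these data known. Their counts therefore describe the split and are no independent test. Il1b, which encodes the cytokine interleukin-1 beta, was at 2726 CPM in Csf3r cells and 369 CPM in cells with 0 Csf3r UMI (7.39, 7.01 to 7.80). Trem1, an activating receptor of myeloid cells, had a ratio of 7.16 and Slfn4, a schlafen family gene, 13.9 (9.26 to 20.4), the highest of all genes compared beside Csf3r itself. Msrb1, which repairs oxidised methionine, and the interferon-induced Ifitm1 and Ifitm2 had ratios of 2.64, 4.86 and 2.43. After Slfn4 came Gm5483, Ptgs2, Il1b, H2-Q10, Trem1, Mmp9, Cxcl2, Irg1, Ppp1r3b, Trim30b and F630028O10Rik among genes other than the 7, with ratios of 10.7 to 6.18. Ly6g, the surface marker used to sort mouse neutrophils, had only 3 UMI in Csf3r cells and was too low to be compared.

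Granule genes are made in turn as neutrophils mature, and the earliest were barely detected. None of the 5 primary granule genes in the table had enough UMI to be compared: Mpo (myeloperoxidase) and Prtn3 had 2 UMI each in Csf3r cells and Elane (neutrophil elastase), Ctsg and Ms4a3 had 0. Of the specific granule genes, which come next, Camp, Ngp, Cd177 and Ltf had 6, 4, 7 and 2 UMI in Csf3r cells and fell below the limit of 100 UMI. Their ratios were 14.9 (4.80 to 39.5) for Camp, 10.5 (2.56 to 32.6) for Ngp, 4.40 (1.70 to 9.57) for Cd177 and 1.79 (0.211 to 6.84) for Ltf. Of the 5 compared, 2 were at least 2-fold higher in Csf3r cells, where 4.10% of all genes were: Lcn2 (2.67, 2.10 to 3.37) and Mmp8 (2.14, 1.31 to 3.32). Chil3, a chitinase-like protein also made by alveolar macrophages, was at 1534 CPM in Csf3r cells and 1870.0 CPM in cells with 0 Csf3r UMI, while Cybb, a subunit of the phagocyte oxidase, had a ratio of 1.05 and Hp (haptoglobin) of 1.99. Lcn2 was far more abundant in the CD45-negative library (1413 CPM). Of 5 late genes, 4 were higher, beside the same 4.10% of all genes, with Slpi, a protease inhibitor, at 2806 CPM in Csf3r cells and 642 CPM in cells with 0 Csf3r UMI, and Mmp9, the gelatinase, with a ratio of 7.02 (4.64 to 10.3). Adam8 had a ratio of 3.68, and Pglyrp1, a peptidoglycan-binding protein, reached 1.91 (1.51 to 2.38).

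Partners of Cxcr2 were mixed. Among 9 compared receptors for chemoattractants and growth factors, 4 were at least 2-fold higher in Csf3r cells, beside 4.10% of all genes: Cxcr4, which holds neutrophils in the marrow (3.27), Ptafr (5.56), Ccr1 (4.30) and C5ar1 (3.17). Csf2rb, a shared chain of cytokine receptors, had a ratio of 1.58. Among the ligands of the receptor, Cxcl2 was at 3071 CPM in Csf3r cells and 445 CPM in cells with 0 Csf3r UMI (6.89, 6.56 to 7.25). These levels are summed over cells, and whether Cxcr2 and Cxcl2 lay in the same cells was not tested. Cxcl1 and Cxcl3 had 3 and 2 UMI in Csf3r cells, with ratios of 0.495 (0.101 to 1.46) and 0.304 (0.0366 to 1.11). Cxcl15, the lung chemokine of airway epithelium, was at 114 CPM in Csf3r cells and 84.1 CPM in cells with 0 Csf3r UMI.

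Few relatives of the 7 genes passed 2-fold. Of 8 compared S100 genes 0 were higher and 0 lower, a count that does not set them apart from all genes, of which 4.10% were higher and 8.45% lower. S100a6 was at 1529 CPM in Csf3r cells and 1207 CPM in cells with 0 Csf3r UMI, and the ratios were 1.41 for S100a11, 0.829 for S100a10 and 0.908 for S100a4. Of 7 compared genes of the C-type lectin list, which counts Fcer1g in, Clec4e (5.37) and Clec4n (2.26) were higher, beside 4.10% of all genes. Clec4b1, with 2 UMI in Csf3r cells, was lower (0.245, 0.0295 to 0.891). Fcer1g, which encodes a signalling chain and no lectin, had a ratio of 1.75 and Clec4a3 1.36. Retnla was at 40.8 CPM in Csf3r cells and 77.4 CPM in cells with 0 Csf3r UMI (0.527, 0.337 to 0.786). Of 7 lipid droplet genes that stand near G0s2 in function, 0 were at least 2-fold higher and 1, Lipe with 2 UMI in Csf3r cells, was lower, again near the shares over all genes; Pnpla2, the lipase that G0s2 inhibits, had a ratio of 1.11 (0.716 to 1.65), and Plin2, a coat protein of fat droplets, of 1.29. None of the 6 other histamine and amine genes had enough UMI to be compared, with 2 UMI for the vesicular transporter gene Slc18a2 and 3 UMI for the histamine-degrading Hnmt in Csf3r cells.

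In a list of genes described in tumour neutrophils, 6 of 10 compared were at least 2-fold higher in Csf3r cells and 0 lower, beside 4.10% higher and 8.45% lower among all genes, with a median ratio of 2.19. Ptgs2, the inducible cyclooxygenase, was at 314 CPM in Csf3r cells and 35.8 CPM in cells with 0 Csf3r UMI (8.77, 7.45 to 10.3). The chemokine genes Ccl3 and Ccl4 had ratios of 2.66 and 1.55, Cd274, which encodes the checkpoint ligand PD-L1, 2.54, and Siglecf 2.46. Vegfa passed with 6 UMI in Csf3r cells (2.22, 0.797 to 4.97), while Tgfb1 had a ratio of 0.961. Across the 7438 immune cells, the genes whose log2 levels were most like the summed 7 were Il1b (Pearson 0.581), Cxcl2 (0.542) and Ier3 (0.463), followed by Ccrl2, Ptgs2, Csf3r, Ifitm1, Cebpb, Irg1 and Lst1 (0.423 to 0.378). These cells share 1 library and differ in depth.

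Most of the transcripts lay outside Csf3r cells. Csf3r cells were 1.36% of the cells in the CD45-positive library and held 9.33% (9.11 to 9.56%) of the summed UMI of the 7 genes. Immune cells with 0 Csf3r UMI held 40.1%, and the non-immune classes held the remainder beside cells with 1 Csf3r UMI (18.9%). A UMI of S100a8 was found in 54.3% of Immune, 63.0% of AT2 (surfactant-making epithelium), 51.1% of Endothelial and 72.5% of AT1 (flat alveolar type 1) cells of the CD45-positive library. In the CD45-negative library the shares were 13.9% of Immune, 3.94% of AT2, 4.32% of Endothelial and 6.32% of AT1 cells, despite the greater depth. After thinning to 1000 UMI, S100a8 was found in 27.3% of AT2 cells of the CD45-positive and 0.239% of AT2 cells of the CD45-negative library. The median depths of AT2 cells were 4239 UMI in the CD45-positive and 8143 UMI in the CD45-negative library. Depth also differed between classes of the CD45-positive library, with medians of 3198 UMI in Immune, 3591 UMI in Endothelial and 8840 UMI in AT1 cells. After thinning, S100a8 was found in 27.5% of Immune, 22.6% of Endothelial and 16.7% of AT1 cells there. AT1 cells thus went from the highest of these 4 shares to the lowest.

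By level, S100a8 in the CD45-positive library ran from 790 CPM (779 to 800.3) in Immune cells through 525 CPM in Endothelial, 476 CPM in Fibroblast, 439 CPM in Ciliated, 431 CPM in AT2 and 416 CPM in Erythrocyte cells to 215 CPM in AT1 cells. From Fibroblast down to Erythrocyte, neighbours differed by less than counting error, while Endothelial and Fibroblast cells were barely apart (1.10). AT1 cells were below Erythrocyte cells (1.93, 1.57 to 2.37). Much of this order hung on calprotectin-rich cells. Without cells of 20 or more S100a8 plus S100a9 UMI, S100a8 was at 314 CPM in Immune, 293 CPM in Fibroblast and 264 CPM in AT2 cells. Ciliated cells were then at 257 CPM, Endothelial at 255 CPM, AT1 at 206 CPM and Erythrocyte cells at 161 CPM. Immune cells thus stayed highest, by less, and AT1 cells were no longer lowest. In the CD45-negative library, with all cells kept, S100a8 was at 53.5 CPM in Immune, 23.3 CPM in Fibroblast and 18.7 CPM in Endothelial cells. The levels there were 12.2 CPM in AT2, 4.31 CPM in Ciliated, 3.54 CPM in AT1 and 3.21 CPM in Erythrocyte cells. Single cells weighed on the upper 4 values of the CD45-negative library, least in Immune cells. Without the cell with the most S100a8 UMI, the level was 5.56 CPM in Fibroblast, 9.14 CPM in Endothelial and 5.82 CPM in AT2 cells. Immune cells were then at 34.2 CPM (23.8 to 47.6), still the highest of the 4. With all cells kept, S100a9 followed the order of S100a8 at its top and bottom in the CD45-positive library. It ran from 543 CPM in Immune to 134 CPM in AT1 cells. Without cells of 20 or more UMI of the pair it was at 120 CPM in AT1 and 114 CPM in Erythrocyte cells.

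The genes with few UMI were spread over all classes too. Cxcr2 lay between 14.9 CPM in Immune and 5.16 CPM in AT1 cells of the CD45-positive library. No neighbours in the order of its classes differed beyond counting error, but classes with few UMI lay between the larger ones. The interval of Immune cells (13.5 to 16.4 CPM) lay above those of Endothelial (8.61 to 12.98), AT2 (5.10 to 9.01) and AT1 cells (2.07 to 10.6). It overlapped those of Erythrocyte, Ciliated and Fibroblast cells, which had 4, 10 and 8 UMI. Clec4d was highest in Immune cells of both libraries, with 31.8 CPM among CD45-positive and 10.7 CPM among CD45-negative ones, and was 1.84-fold (1.13 to 3.23) above Fibroblast, the next class, in the CD45-positive library. In the Ciliated class of the CD45-negative library Clec4d had 0 UMI (up to 2.16 CPM from a floor of 3 counts).

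Ratios between the genes were compared across classes. Free transcripts of neutrophils and doublets with neutrophils would both keep the proportions of the source, and the ratios do not tell them apart. Per 100 S100a8 UMI there were 72.6 (68.6 to 76.8) S100a9 UMI in Csf3r cells. The value was 71.4 in AT2, 71.1 in Endothelial, 67.7 in Fibroblast, 62.3 in AT1, 60.8 in Ciliated and 65.5 in Erythrocyte cells of the CD45-positive library. The Ciliated value was 0.838 times (0.728 to 0.960) that of Csf3r cells and the AT1 value 0.859 times (0.734 to 0.9996), and the intervals of the other 4 classes spanned 1. In immune cells with 0 Csf3r UMI the value was 0.925 times (0.882 to 0.971) that of Csf3r cells. Cxcr2, set against summed S100a8 and S100a9, was at 1.01 per 100 UMI in Csf3r cells and between 0.927 and 1.74 in the 6 non-immune classes, each with an interval that spans the value of Csf3r cells. Clec4d was at 1.67 per 100 UMI in Csf3r cells and 1.74 to 2.95 in those classes, again with overlapping intervals, but at 2.75 (2.53 to 2.99) in immune cells with 0 Csf3r UMI.

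Other genes left that ratio in particular classes. Hdc was at 3.97 (3.43 to 4.58) per 100 UMI of S100a8 plus S100a9 in Csf3r cells, against 14.7 (13.6 to 15.8) in AT2 and 55.5 (48.4 to 63.5) in Ciliated cells, which is 3.70 and 13.97 times the value of Csf3r cells. It was at 8.44 (5.95 to 11.7) in AT1 and 7.99 (6.03 to 10.4) in Fibroblast cells, which is 2.12 times (1.47 to 2.997) and 2.01 times (1.48 to 2.71) the value of Csf3r cells. In Endothelial cells it was at 4.11. Retnlg was at 2.60 per 100 UMI in Csf3r cells and 4.11 (3.58 to 4.69) in AT2 cells. It was about as high in AT1 (4.22, 2.55 to 6.59) and Ciliated cells (4.09, 2.63 to 6.10). Relative to Csf3r cells, the intervals of AT1 (0.959 to 2.61) and Ciliated cells (0.982 to 2.43) spanned 1. Retnlg was at 2.60 in Endothelial, 2.30 in Fibroblast and 0.870 in Erythrocyte cells. G0s2 was at 13.02 in Csf3r cells, 16.8 (15.9 to 17.8) in Endothelial and 16.9 (13.9 to 20.5) in Fibroblast cells. Some immune groups lay below Csf3r cells. For G0s2 the value was 0.858 times (0.787 to 0.938) that of Csf3r cells in immune cells with 0 Csf3r UMI. It was 0.790 times (0.719 to 0.870) in cells of the T cell gate alone and 0.685 times (0.594 to 0.788) in those of the B cell gate alone. For Retnlg it was 0.939 times (0.763 to 1.16) in the T cell gate and 0.382 times (0.251 to 0.567) in the B cell gate.

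**Figure D4:**
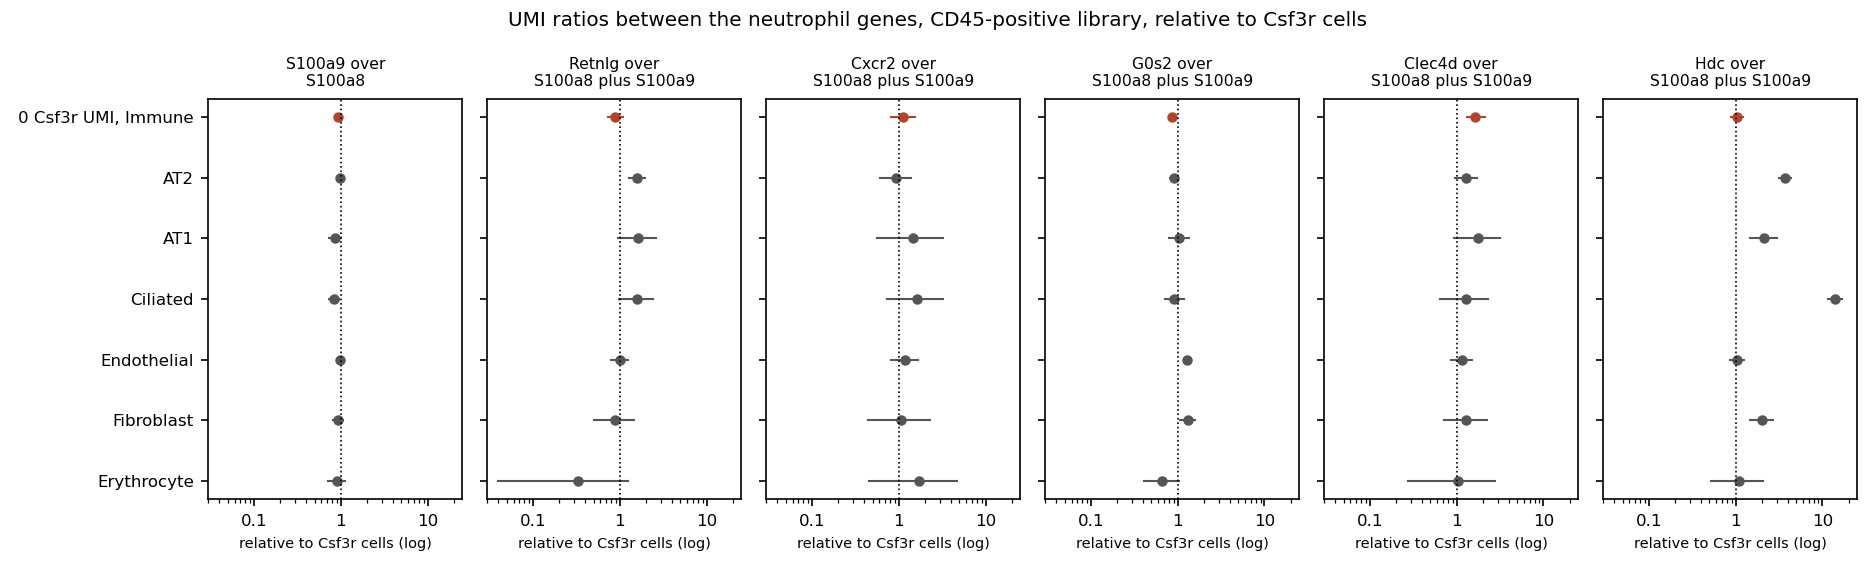
UMI ratio of S100a9 to S100a8, and of each other gene to S100a8 plus S100a9, in classes of the CD45-positive library relative to the same ratio in Csf3r cells (dotted line at 1), on a log axis with 95% intervals for counting error. Points near the line keep the ratio of Csf3r cells; Hdc in AT2 and Ciliated cells lies at 3.70 and 13.97 times that ratio.

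The few calprotectin transcripts of the CD45-negative library lay in very few cells. Of its 3957 cells, 6 reached 20 summed S100a8 and S100a9 UMI, and they held 540 of the 879 UMI of the pair (61.4%). They were annotated as AT2 (2 cells), Endothelial (2), Fibroblast (1) and Immune (1), and 5 of them had a Csf3r UMI. A single AT2 barcode had 182 UMI of the pair. Without the 6 cells S100a8 was at 5.39 CPM, with 3.62 CPM in AT2 and 5.56 CPM in Fibroblast cells. None of the 6 barcodes was shared with the CD45-positive library. In that library, 594 cells (5.20%) reached the same limit and held 59.98% of the pair's UMI.

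Immune cells of the CD45-negative library had another proportion, with 55 S100a8 UMI beside 5 S100a9 UMI. That is 9.09 (2.84 to 22.5) S100a9 per 100 S100a8 UMI, against 68.7 (67.3 to 70.2) in Immune cells of the CD45-positive library. The S100a8 UMI lay in 15 of 108 cells, 20 of them in 1 cell. Retnlg had 1 UMI, Cxcr2 3, Hdc 5, G0s2 7 and Clec4d 11 UMI in the same cells, none of which had 2 Csf3r UMI. The low proportion was not confined to this class. Endothelial cells of the CD45-negative library had 37.5 (28.0 to 49.7) S100a9 per 100 S100a8 UMI. AT1 cells had 36.8 (13.1 to 91.5), from 7 S100a9 and 19 S100a8 UMI, which is too few to tell from 68.7. AT2 cells of that library had 70.9 (57.6 to 87.2) and Fibroblast cells 71.25 (49.8 to 101).

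Hdc was highest by class in airway epithelium. Ciliated cells had 391 CPM (351 to 435) in the CD45-positive fraction and 464 CPM (429 to 501) in the CD45-negative fraction, the top of both. A UMI was found in 69.8% of Ciliated cells of the CD45-positive and 75.9% of the CD45-negative library, and after thinning in 31.9% of the CD45-positive and 35.2% of the CD45-negative ones; in Immune cells of the CD45-negative library the share was 4.63%. AT2 cells came next, with 109 CPM in CD45-positive and 102 CPM in CD45-negative cells (1.07, 0.983 to 1.16), followed by Fibroblast cells with 63.9 CPM in CD45-positive and 66.5 CPM in CD45-negative cells. The CD45-negative library held few calprotectin UMI beside them: its 108 Ciliated cells had 646 Hdc UMI beside 9 UMI of S100a8 and S100a9.

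The Ciliated class was split by 6 genes of motile cilia (Foxj1, Dnah5, Dnah9, Ccdc39, Ccdc40 and Rsph1; 2 or more summed UMI), a split added after the data were seen. Hdc was at 468 CPM (419 to 521) in the 89 cells with cilium genes and 66.6 CPM (33.2 to 119) in the 27 without in the CD45-positive library. In the CD45-negative library it was at 587 CPM (542 to 634) in 82 cells with cilium genes, 98.8% of which had a UMI. The 26 cells without cilium genes held 1 Hdc UMI (3.42 CPM, 0.0865 to 19.0). The median depths were 9612 UMI with and 7775.5 UMI without cilium genes, and after thinning 46.3% of the cells with cilium genes and 0% of the others had a UMI.

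Among immune cells, Hdc was highest not in the calprotectin-rich cluster but in 22 cells led by Il6, Ccl3, Ccl4 and Ccl9. Its level there was 1219 CPM (965 to 1519), with a UMI in 18 of the 22 cells. Mast cell and basophil markers (Cpa3, Fcer1a, Ms4a2, Mcpt8, Cyp11a1 and Cd200r3) were at 2052 CPM in these cells, all 6 of them detected, and at 6.34 CPM in the calprotectin-rich cluster. T cell markers were at 1404 CPM in the 22 cells, and 81.8% of them met the T cell gate. S100a8 was at 170 CPM, Clec4d and Retnlg had 0 UMI (below 46.3 CPM each, from a floor of 3 counts), and Cxcr2 had 7 UMI (108 CPM, 43.4 to 222).

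G0s2 was highest outside the Immune class in the CD45-negative library. Its top class there was Endothelial, with 50.8 CPM (46.5 to 55.5) and a UMI in 19.3% of cells, 2.49-fold (1.93 to 3.24) above Fibroblast, the next class. A single Fibroblast cell held 38 of the 70 G0s2 UMI of its class; without it Fibroblast cells were at 9.41 CPM and Endothelial cells 5.40-fold (3.78 to 7.98) above them. That class was split by Col1a1, Col1a2 and Pdgfra, genes of fibroblasts, again after the data were seen. In the CD45-positive library G0s2 was at 255 CPM (219 to 296) in 128 cells with and 142 CPM (134 to 151) in 2044 cells without these genes. In the CD45-negative library it was at 185 CPM (166 to 207) in 184 cells with them and 22.5 CPM (19.3 to 26.0) in 1065 without. The shares of cells with a UMI in the CD45-negative library were 65.2% with and 11.4% without these genes, at median depths of 7959 UMI with and 6713 UMI without. After thinning they were 18.5% with and 2.07% without.

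**Figure D5:**
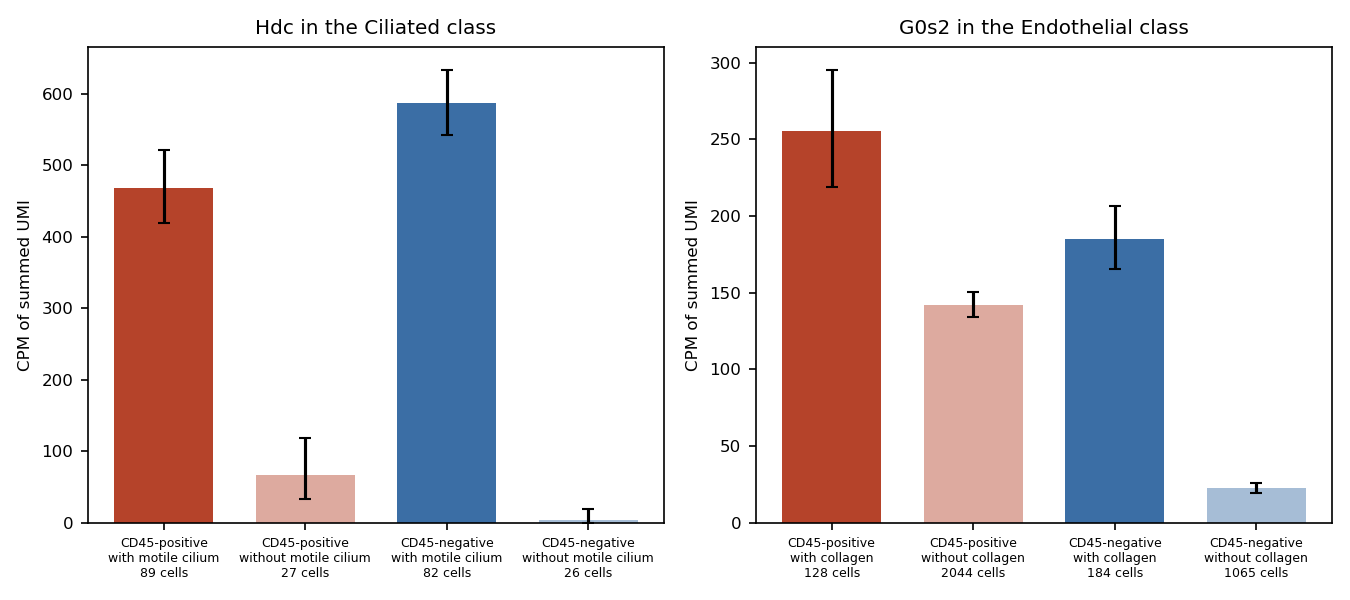
Level of Hdc in the Ciliated class, split by motile cilium genes, and of G0s2 in the Endothelial class, split by collagen genes and Pdgfra, as CPM of summed UMI with exact 95% intervals for counting error. In the CD45-negative library Hdc is at 587 CPM with and 3.42 CPM without cilium genes, and G0s2 at 185 CPM with and 22.5 CPM without collagen genes.

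Retnlg appeared in epithelium beside its relative Retnla, which encodes a resistin-like protein of macrophages and airway cells. In the CD45-negative library 172 of its 201 UMI (85.6%) lay in AT2 cells, at 9.27 CPM (7.93 to 10.8), where Retnla was at 1937 CPM. Of the 99 AT2 cells with a Retnlg UMI there, 86 (86.9%) also had Retnla, as did 70.1% of all AT2 cells. In Csf3r cells of the CD45-positive library, 2 of the 35 cells with Retnlg (5.71%) had Retnla, beside 20 of all 156 (12.8%). The transcripts are alike, with 84.5% identity over 587 aligned bases and a longest shared run of 49 bases, but no window of 98 bases, the read length, is common to both. How much of the Retnlg count in AT2 cells comes from Retnla reads was not tested.

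Clec4d had its highest cluster level outside the calprotectin-rich cells. It was at 384 CPM (289 to 499.9) in 27 immune cells led by Prg4, Saa3 and Alox15, with a UMI in 20 of 27. C1q genes, markers of a macrophage type, were at 7625 CPM in these cells, which met the C1q gate in 27 of 27 cases. S100a8 was at 377 CPM and Cxcr2 at 6.98 CPM, while Retnlg had 0 UMI (below 20.9 CPM). In the calprotectin-rich cluster Clec4d was at 200 CPM (178 to 223), with a UMI in 38.4% of its cells.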

How the data were processed

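Per the labels and the series design text, each channel of the 3′ droplet chip (kit V2) received 6000 cells, and Cell Ranger 1.1.0 turned reads of 98 bases, aligned to mm10, into UMI. The authors deposited raw UMI counts per gene and cell, with a library and a class for each cell; the sources used here do not say how the classes were made. Cell totals matched the deposited totals in all 15389 cells. The 7 genes, the gene lists and the gates were chosen with earlier results of these data known. UMI were summed over cells and divided by the total to give CPM (exact Poisson interval); Clopper-Pearson intervals were used for shares and the conditional binomial for ratios, at 95%. With 1 library per group there was no test; a ratio of 2 counted as higher, among genes with at least 500 UMI (libraries) or 100 UMI (Csf3r cells). Named beside the 7 were the 12 genes with the highest ratio in Csf3r cells, the 10 most correlated with the summed 7, and up to 4 per list by CPM in Csf3r cells; any other gene was chosen after its values were seen. Clusters used scanpy 1.11.5 and igraph 0.11.9 (Leiden, resolution 1.0, 30 components, 15 neighbours). The ratio estimates were tested on simulated data. Calculations ran in Python 3.11.15 with pandas 2.3.3, scipy 1.17.1, numpy 2.4.6 and matplotlib 3.10.9. Alternatives changed the Csf3r limit, the comparator, the depth, the filters and the averaging.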

Additional observations from a re-analysis of the deposited data

How the results depend on the processing

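The ratio of the 7 genes summed between the libraries (11.7) was 12.2 without the deepest 5% of cells, 13.9 as a mean of per-cell CPM, 2.79 without S100a8 and S100a9, and 6.22 without cells of 20 or more S100a8 plus S100a9 UMI. The ratio of Csf3r cells to cells with 0 Csf3r UMI (9.79) was 6.36 with 1 or more Csf3r UMI, 12.3 with 3 or more, 19.7 for the cells that met no other gate, 7.24 against cells with fewer than 2 Csf3r UMI, 13.4 for the cluster against other immune cells and 10.1 without S100a8 and S100a9. In the order of 1 or more, 3 or more and no other gate, the share of UMI held (9.33%) became 28.2%, 3.21% and 2.38%, and the share of cells with 4 or more genes (62.8%) became 44.2%, 77.5% and 92.3%. The share held was 30.7% in the cluster, 9.59% without the deepest cells and 8.75% without S100a8 and S100a9; thinning took the share with 4 or more genes to 28.2%. The number of all genes past a ratio of 2 between the libraries (820) was 2103 with no filter and 1261 with at least 100 UMI. In Csf3r cells (388) it was 186 and 893 at the lower and higher Csf3r limit, 1460 for cells that met no other gate, 1489 with no filter and 136 with at least 500 UMI. None of the 49 single-gene ratios under 7 alternatives reversed, and all stayed at least 2-fold (4.37 to 25.1). The cluster and the removal of calprotectin-rich cells, shared barcodes and single top cells were chosen after seeing the data. No paired analysis was possible because each group is 1 library. Low counts of Cxcr2, Retnlg and Clec4d limit the precision of their values.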
